A study of Mus musculus with 9 samples.

Results

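Rab proteins are small GTPases that mark the membranes of the secretory and endocytic pathways. The Rab genes of mouse bone marrow (BM) cells that the labels call endothelial cells (ECs) were taken from the deposited count table by their names, as every row called Rab followed by a number, at most one letter and at most one further digit. The rule gave 59 genes of 46078, and 54 of them had enough reads to be tested. RNA-seq had been run on 9 libraries of CD45-Ter119-CD31+ BM cells sorted from normal wild-type B6 mice, 4 of the Sca-1+ fraction, which the study names arteriolar ECs, and 5 of the Sca-1- fraction, which it names sinusoidal ECs. No mutation or treatment is given for these mice, and the labels do not say whether libraries came from separate animals, so p-values measure the spread between these samples, which may be technical. Libraries are named by the number that ends their label (Sca-1+ 7, 13, 15 and 19, Sca-1- 8, 10, 14, 16 and 22). Some also share a tag in the label, Sca-1+ 15 with Sca-1- 16 and Sca-1+ 13 with Sca-1- 14 and 22, and what a tag marks is not stated. The numbers that open the labels, unlike those that end them, do not overlap between the 2 fractions. A batch that followed the opening numbers and the fraction therefore cannot be told apart.

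A Rab cycles between a GDP-bound form in the cytosol and a GTP-bound form on a membrane. Exchange factors load it with GTP, effectors then tether vesicles or link them to motors, and GTPase activating proteins end the cycle. Different Rabs stand for different steps. Rab1 and Rab2 serve transport between the endoplasmic reticulum and the Golgi, Rab5 early endosomes, Rab4 and Rab11 recycling, Rab7 late endosomes, and Rab3 and Rab27 regulated secretion. Platelets and their parent cells, megakaryocytes, use Rab27a, Rab27b, Rab32, Rab38 and Rab4a in forming or releasing alpha and dense granules. ECs store von Willebrand factor in Weibel-Palade bodies, on or near which Rab3a, Rab3b, Rab3d, Rab15, Rab27a, Rab33a, Rab35 and Rab37 are known.

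Total counts were 21581653 to 25959818 per library. Levels are CPM (counts scaled to a common library size, after TMM scaling of the libraries), the TMM factors ran from 0.581 in Sca-1- 10 to 1.22 in Sca-1+ 13, and values are mean ± SD of 4 Sca-1+ and 5 Sca-1- libraries. Ly6a, which encodes Sca-1, was at 874 to 1306 CPM in Sca-1+ and 0.240 to 1.49 CPM in Sca-1- libraries. The labelled cell type was not borne out evenly. The summed level of 25 endothelial markers was 16330 to 20623 CPM in Sca-1+ but 389 to 1022 CPM in Sca-1- libraries, where Cdh5 was at 2.44 to 13.1 CPM, whereas 15 megakaryocyte markers summed to 38.8 to 90.2 CPM in Sca-1+ and 26630 to 116853 CPM in Sca-1- libraries. All 25 endothelial genes were higher and all 15 megakaryocyte genes lower in Sca-1+ cells, and 10 of 12 leukocyte genes were lower too (121.6 to 196 CPM in sum against 1837 to 3606 CPM). Erythroid markers, 7 of 10 of them lower, summed to 106 to 232 CPM in Sca-1+ and 640 to 2398 CPM in Sca-1- libraries, and 6 stromal markers, of which 2 were higher and 1 lower, to 509 to 2212 and 2370 to 28838 CPM. Their part in each Rab difference was not tested, and in such bulk samples fewer cells of a type and less RNA per cell cannot be told apart.

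Of 13 tested Rabs of secretory granules and exocytosis 8 were lower in the Sca-1+ fraction, most of all Rab27b, and 2, Rab3b and Rab3a, were higher, at a median log2 fold change of -2.60. Rab20 of late endosomes was higher as well. By edgeR's quasi-likelihood test (adjusted p under 0.05, Benjamini-Hochberg, over the 15937 genes that passed the filter on low counts), 16 of the 54 Rabs were lower and 9 were higher in Sca-1+ cells, and 29 did not pass. Of all genes tested, 44.8% were called, 23.3% as higher and 21.4% as lower in Sca-1+ cells. The median log2 fold change (Sca-1+ over Sca-1-) was -0.46 over the tested Rabs and 0.07 over all genes. The split depends on the scaling. Of all calls 52.1% were higher in Sca-1+ cells, 63.1% on library size alone and 1.04% when libraries were scaled to the endothelial markers, a scaling that moved the median of all genes to -5.05 and with it nearly all Rab fold changes below 0. Where a call is said to be gained or lost without a library, the fits that left out 1 library each are meant. In 6 libraries with consecutive label numbers as a block, 3 Rabs were higher and 9 lower, against 6 and 10 without the block. The calls of Rab10, Rab24, Rab33b and Rab3a were lost with that block. Every Sca-1+ library lay below every Sca-1- library for 13 Rabs and above for 11, where 18.8% and 24.8% of all genes tested did so. Of 6 tested Rabs of late endosomes, lysosomes and autophagy 3 were higher and none was lower, at a median of 0.55. ER and Golgi Rabs split evenly, 3 higher and 3 lower of 14, and of 13 early and recycling endosome Rabs 1 was higher and 3 were lower.

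**Figure D1:**
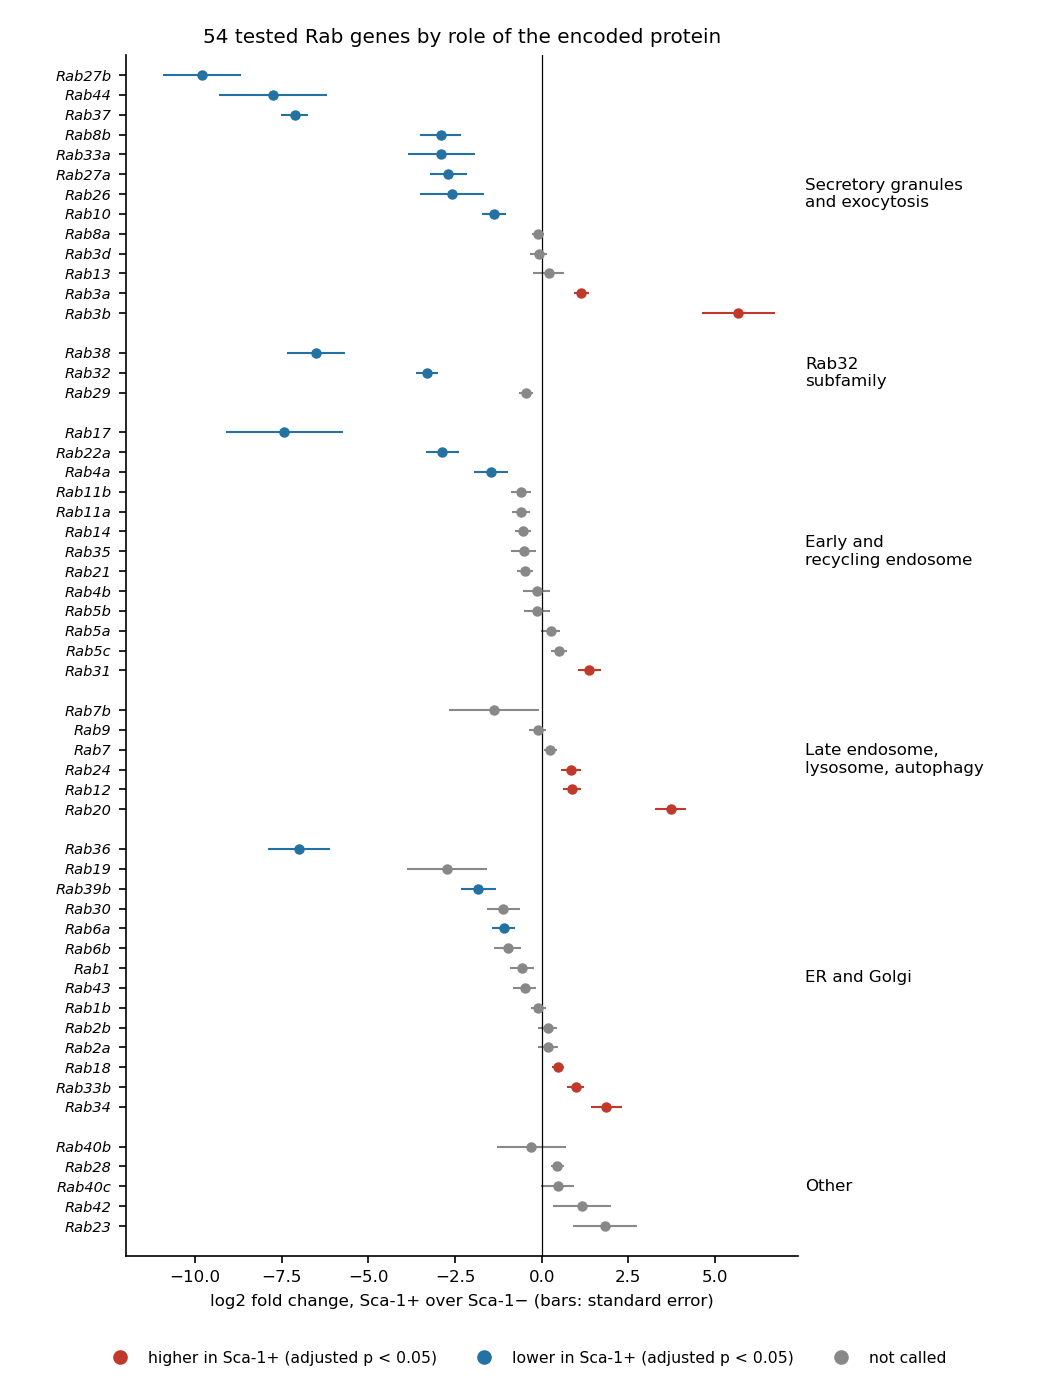
Log2 fold change between the fractions for each of the 54 tested Rab genes, in groups by the role of the protein (x axis, Sca-1+ over Sca-1-, bars are the standard error, colour gives the call at an adjusted p under 0.05). Secretory Rabs reach from -9.81 for Rab27b to 5.67 for Rab3b, while most ER, Golgi and endosome Rabs lie near 0.

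The stretch before the RefSeq start of 4 genes that differed is shown here, of which 2 (Rab27a, Rab32) were lower and 2 (Rab3b, Rab20) higher in Sca-1+ cells. RefSeq promoter entries (GRCm38.p6) matched 47 of the 59 genes, with 59 starts. Each line gives the 250 bases before the RefSeq start, read 5′ to 3′ on the gene's strand, and capitals mark a motif searched on both strands, either the GATA letters AGATAA or TGATAA or the E-box letters CACGTG.
Rab27a, chr9:73044560-73044809, plus strand: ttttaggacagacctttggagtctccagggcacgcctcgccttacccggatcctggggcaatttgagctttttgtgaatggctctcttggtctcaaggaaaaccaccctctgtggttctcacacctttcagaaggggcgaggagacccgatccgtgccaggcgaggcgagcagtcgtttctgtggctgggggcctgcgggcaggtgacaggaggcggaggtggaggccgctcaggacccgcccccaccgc
Rab27a, second start, chr9:73063898-73064147, plus strand: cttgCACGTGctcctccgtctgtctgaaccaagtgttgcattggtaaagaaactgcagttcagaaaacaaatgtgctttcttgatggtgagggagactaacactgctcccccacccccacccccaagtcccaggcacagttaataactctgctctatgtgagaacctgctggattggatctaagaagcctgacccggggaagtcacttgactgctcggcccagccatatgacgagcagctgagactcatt
Rab32, chr10:10558208-10558457, minus strand: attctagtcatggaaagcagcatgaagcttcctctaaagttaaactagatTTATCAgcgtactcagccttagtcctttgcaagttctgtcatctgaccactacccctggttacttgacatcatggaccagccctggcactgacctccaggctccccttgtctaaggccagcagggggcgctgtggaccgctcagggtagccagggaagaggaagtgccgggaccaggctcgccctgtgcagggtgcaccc
Rab3b, chr4:108878820-108879069, plus strand: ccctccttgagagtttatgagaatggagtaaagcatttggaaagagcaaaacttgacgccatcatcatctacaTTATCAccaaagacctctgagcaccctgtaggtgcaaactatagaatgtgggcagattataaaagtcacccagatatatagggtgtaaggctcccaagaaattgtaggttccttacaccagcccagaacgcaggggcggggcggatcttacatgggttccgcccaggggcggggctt
Rab20, chr8:11478641-11478890, minus strand: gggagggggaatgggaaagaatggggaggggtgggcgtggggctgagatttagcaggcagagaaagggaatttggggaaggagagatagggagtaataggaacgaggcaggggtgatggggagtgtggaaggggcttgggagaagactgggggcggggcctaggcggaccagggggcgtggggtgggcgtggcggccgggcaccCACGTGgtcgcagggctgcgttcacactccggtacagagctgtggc

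The lower Rab32 and the higher Rab3b both held a GATA match on the reverse strand, and the higher Rab20 and the second start of the lower Rab27a an E-box. GATA letters stood in 6 of the 59 Rab entries (10.2%) and in 16.6% of all 32851 entries of the same length, in 2 of the 10 entries of Rabs that were higher and 1 of the 10 of Rabs that were lower. The E-box stood in 5 of 59 (8.47%) against 6.02% of all entries, in 1 of the 10 entries of Rabs that were higher and 1 of the 10 of Rabs that were lower, and the ETS letters CCGGAAG in 3 of 59 (5.08%) against 6.91%. The printed genes hold every GATA and E-box match among the entries of the lower Rabs, so they do not stand for the Rabs that differed. The Rab20 E-box lies inside the gene model of the annotation used for exon lengths, which reaches to chr8:11478710. A match describes these letters and does not show that a factor binds.

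All 5 Rabs known in platelet granules were lower in the Sca-1+ fraction, at a median log2 fold change of -3.30, where 21.4% of all genes tested were lower. The call of Rab4a was lost when certain single libraries were left out. Rab27b, the Rab27 paralog on which platelet dense granules chiefly depend, was at 2.90, 0.0681, 0.794 and 3.21 CPM in Sca-1+ 7, 13, 15 and 19, and at 1684, 2911, 1397, 617 and 1233 CPM in Sca-1- 8, 10, 14, 16 and 22. The fractions were far from overlapping, and within Sca-1- the highest library was 10 and the lowest 16. The means were 1.74 ± 1.55 and 1568 ± 846 CPM (899-fold lower in Sca-1+, log2 fold change -9.81 ± 1.13 SE, adjusted p = 0.000118). Rab27b supplied 12.99 to 23.4% of all Rab counts in Sca-1- libraries and 0.00170 to 0.0774% in Sca-1+ libraries, a share that does not depend on how libraries are scaled.

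Rab38, which with Rab32 delivers cargo to lysosome-related organelles such as dense granules and melanosomes, was at 0.545, 0.511, 0.138 and 0 CPM in Sca-1+ 7, 13, 15 and 19. In Sca-1- 8, 10, 14, 16 and 22 it was at 15.3, 25.0, 35.0, 18.6 and 47.0 CPM. Every Sca-1- library was above every Sca-1+ library (log2 fold change -6.52 ± 0.84, adjusted p = 0.00021). Rab32 was at 6.58, 12.4, 6.77 and 12.7 CPM in Sca-1+ libraries and 117, 85.5, 115, 62.8 and 92.2 CPM in Sca-1- libraries, listed in the same order. It kept a low but measured level in Sca-1+ cells (9.61 ± 3.39 against 94.7 ± 22.7 CPM, 9.85-fold lower, adjusted p = 4.83e-05). Rab29, the third member of this subfamily, known from the trans-Golgi and lysosomes, was not called (25.3 ± 3.4 against 34.4 ± 5.6 CPM, adjusted p = 0.0931).

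Rab27a, the Rab27 paralog that tethers Weibel-Palade bodies in ECs and is known in platelets too, was at 4.40, 2.15, 2.45 and 12.8 CPM in Sca-1+ 7, 13, 15 and 19. In Sca-1- 8, 10, 14, 16 and 22 it was at 29.4, 38.1, 33.3, 30.6 and 44.7 CPM. The fractions did not overlap, though Sca-1+ 19 stood well above the other Sca-1+ libraries. Rab27a was 6.46-fold lower in Sca-1+ cells (log2 fold change -2.69 ± 0.53, adjusted p = 0.00231, and -3.55 without Sca-1+ 19). Neutrophil markers summed to 766 CPM in Sca-1+ 19 against 9.29 to 58.9 CPM in the other Sca-1+ libraries. The sums of B and plasma cell (46.4 CPM), erythroid, basophil and mast cell, and smooth muscle and pericyte markers were also highest there among Sca-1+ libraries. The part of any of these cells in the Rab27a level was not tested. Rab27a was below its paralog in every Sca-1- library, by 4.33 to 6.25 on the log2 scale, and above it in every Sca-1+ library, by 0.59 to 3.90 on the log2 scale. Of the 3879 exon bases of Rab27a, 149 lie in an overlapping gene model (Gm27186).

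Rab4a, a Rab of rapid recycling that is known in alpha granule release, differed least. It was at 18.8, 25.3, 17.7 and 9.49 CPM in Sca-1+ libraries and 15.7, 27.7, 84.6, 76.9 and 40.0 CPM in Sca-1- 8, 10, 14, 16 and 22. The fractions overlapped, and the lowest Sca-1- library was 8. Rab4a was highest in Sca-1- 14 and 16, where the summed basophil and mast cell markers were highest too (1846 and 12764 CPM). The megakaryocyte sum was highest in Sca-1- 10 and 8 (116853 and 92829 CPM). The part of these cells in the Rab4a level was not tested. The call (log2 fold change -1.46 ± 0.50, adjusted p = 0.0365) was lost when Sca-1+ 7, 15 or 19 or Sca-1- 14 or 16 was left out, with an adjusted p of up to 0.0952. Rab4b, its paralog, was at 1.58 ± 0.34 and 1.75 ± 0.36 CPM and was not called (adjusted p = 0.793), and 1368 of its 1970 exon bases are shared with other gene models.

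**Figure D2:**
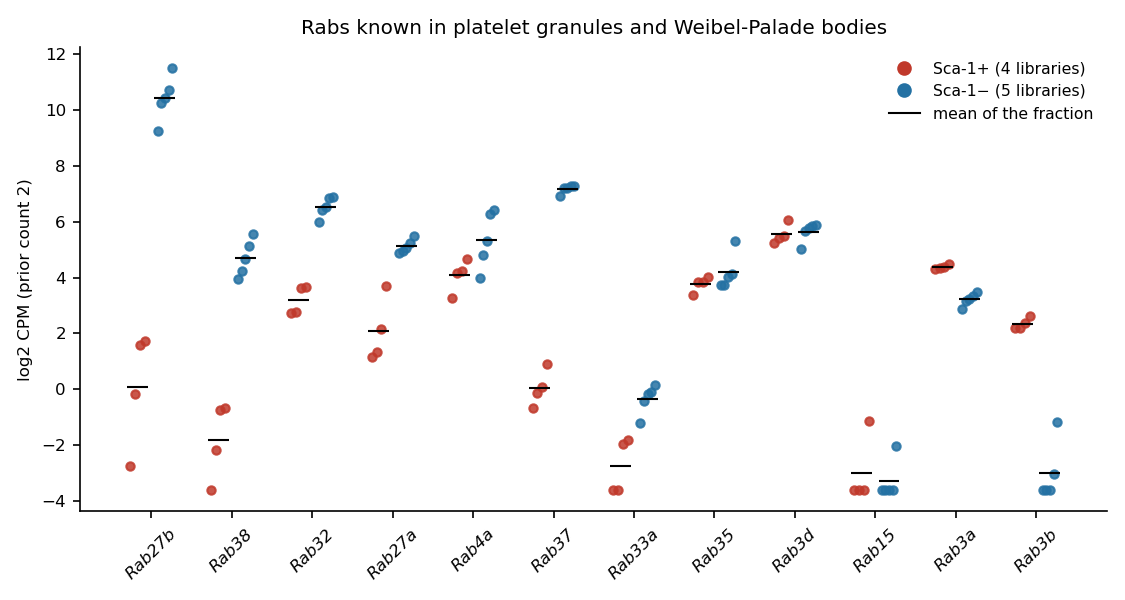
Level of the Rabs known in platelet granules (Rab27b, Rab38, Rab32, Rab27a, Rab4a) and of those known on Weibel-Palade bodies in each library (y axis, log2 CPM with a prior count of 2, black lines are means of the fraction). Rab27b, Rab38, Rab32, Rab27a, Rab37 and Rab33a separate the fractions one way, Rab3a and Rab3b the other way, and Rab4a, Rab35, Rab3d and Rab15 overlap.

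Rabs known on Weibel-Palade bodies moved in both directions. Of the 7 that were tested Rab3a and Rab3b were higher in Sca-1+ cells, Rab27a, Rab33a and Rab37 were lower, and Rab3d and Rab35 were not called (median log2 fold change -0.52). The eighth, Rab15, was too low to test, with 0.375 CPM in Sca-1+ 7 and 0.163 CPM in Sca-1- 22 and no count in the other libraries.

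Rab3b, a secretory Rab, was at 4.43, 6.13, 4.45 and 5.03 CPM in Sca-1+ 7, 13, 15 and 19. It had no count in Sca-1- 8, 10 and 14, and was at 0.365 and 0.0407 CPM in Sca-1- 16 and 22. The fractions did not overlap (5.01 ± 0.80 against 0.0812 ± 0.160 CPM, log2 fold change 5.67 ± 1.05, adjusted p = 0.00158). The size of this ratio rests on Sca-1- 16, which held 11 counts, and the log2 fold change was 8.16 without it. Rab3a, best known from synaptic vesicles, was at 19.5, 19.99, 22.3 and 20.8 CPM in Sca-1+ and 11.1, 8.80, 9.38, 7.24 and 9.98 CPM in Sca-1- libraries. The Sca-1+ libraries lay close together and all above the others (2.22-fold, log2 fold change 1.15 ± 0.22, adjusted p = 0.00184).

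Rab3d, the Rab3 of dense-core and zymogen granules, had the highest level per kilobase of exon of the 3 Rab3 genes detected, at 11.5 ± 3.1 CPM per kb in Sca-1+ and 12.2 ± 2.6 CPM per kb in Sca-1- cells, and did not differ beyond its spread (log2 fold change -0.08 ± 0.25, adjusted p = 0.804). Per kb Rab3a stood at 9.27 ± 0.56 and 4.18 ± 0.65, and Rab3b at 1.42 ± 0.23 and 0.0230 ± 0.0453. Rab3c had no count in any library. The fractions therefore differed in Rab3a and Rab3b while Rab3d was at a like level in both.

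Rab37, known from secretory granules of mast cells and from Weibel-Palade bodies, was at 1.77, 0.545, 0.8288 and 0.968 CPM in Sca-1+ 7, 13, 15 and 19. In Sca-1- 8, 10, 14, 16 and 22 it was at 121, 146, 155, 154 and 146 CPM. It was 139.7-fold lower in Sca-1+ cells with the smallest standard error among the 6 Rabs with the largest falls (log2 fold change -7.13 ± 0.39, adjusted p = 6.3e-06). Its SD within Sca-1- was 9.70% of its mean, against 53.9% for Rab27b and 57.9% for the summed megakaryocyte markers. That evenness depends on the scaling, since on library size alone the SD of Rab37 was 35.0% and that of Rab27b 28.9% of the mean. As a ratio that no scaling alters, Rab37 had 5.03% as many counts as Rab27b in Sca-1- 10 and 24.9% in Sca-1- 16.

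Rab33a, a Golgi and secretory vesicle Rab, was near the limit of measurement, at 0.205, 0, 0.173 and 0 CPM in Sca-1+ and 0.661, 0.349, 1.02, 0.797 and 0.855 CPM in Sca-1- libraries. The call (log2 fold change -2.89 ± 0.97, adjusted p = 0.033) was lost or the gene fell under the filter without Sca-1+ 13, 15 or 19 or Sca-1- 8, 14, 16 or 22. Its paralog Rab33b, which acts in Golgi transport and autophagy, went the other way, at 43.4 to 53.4 CPM in Sca-1+ and 13.7 to 28.1 CPM in Sca-1- libraries (log2 fold change 0.98 ± 0.24, adjusted p = 0.00684), and 661 of its 3538 exon bases lie opposite another gene model (Gm38160). Rab35, a recycling Rab, was at 10.4 to 16.1 CPM in Sca-1+ and 13.2 to 39.1 CPM in Sca-1- libraries and was not called (adjusted p = 0.264).

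Of the other Rabs of exocytosis, Rab8b, Rab10 and Rab26 were lower and Rab8a and Rab13 were not called. Rab8b, which carries vesicles to the cell surface, was at 113, 91.4, 106 and 121 CPM in Sca-1+ and 1204, 1778, 453, 226 and 415 CPM in Sca-1- 8, 10, 14, 16 and 22. Every Sca-1- library was above every Sca-1+ library (7.56-fold lower in Sca-1+, log2 fold change -2.92 ± 0.59, adjusted p = 0.00273). Its paralog Rab8a, which acts in the same step, was at 139 to 155 CPM and 133 to 187 CPM and was not called (log2 fold change -0.11 ± 0.17, adjusted p = 0.624). Within each library Rab8a exceeded Rab8b in all Sca-1+ libraries by 0.20 to 0.70 on the log2 scale and was below it in all Sca-1- libraries by 0.27 to 3.39. Rab10, a Rab of regulated exocytosis, was 2.61-fold lower in Sca-1+ cells (216 to 263 against 343 to 1066 CPM, adjusted p = 0.00876). Rab26, a Rab of secretory granules, was at 0 to 0.967 CPM and 1.49 to 4.41 CPM. Its call (log2 fold change -2.60 ± 0.92, adjusted p = 0.041) was lost without Sca-1+ 7, 13 or 15 or Sca-1- 8, 10, 14 or 22. Rab13, a Rab of tight junction transport in epithelia and ECs, was at 26.1 to 51.2 CPM in Sca-1+ and 17.2 to 78.3 CPM in Sca-1- libraries and was not called (adjusted p = 0.743).

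Rab44 is a large Rab with added domains, known from mast cells and osteoclasts. It had no count in Sca-1+ 7, 13 and 15 and 0.503 CPM in Sca-1+ 19, and was at 5.23, 13.9, 18.7, 90.5 and 4.93 CPM in Sca-1- 8, 10, 14, 16 and 22. The fractions did not overlap, and Sca-1- 16 held most of the signal. The Rab44 log2 fold change was -7.74 ± 1.56 (adjusted p = 0.00259) and -6.41 without Sca-1- 16 (adjusted p = 0.00397), and without Sca-1+ 19 all remaining Sca-1+ libraries were at 0. The summed level of 6 basophil and mast cell markers was highest in the same library, 12764 CPM in Sca-1- 16 and 1846 CPM in Sca-1- 14 against 83.8 to 284 CPM in Sca-1- 8, 10 and 22 and 23.4 to 78.3 CPM in Sca-1+ libraries. Its part in the result was not tested. Rab19, a Golgi Rab, was likewise highest in Sca-1- 16, at 45.3 CPM against 0.601 to 3.70 CPM in the other Sca-1- libraries and 1.19 to 2.00 CPM in Sca-1+ libraries. It was not called (log2 fold change -2.73 ± 1.16, adjusted p = 0.0797, and -0.47 without Sca-1- 16), except in the fit without Sca-1- 8 (adjusted p = 0.0383) and when scaled to the endothelial markers.

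**Figure D3:**
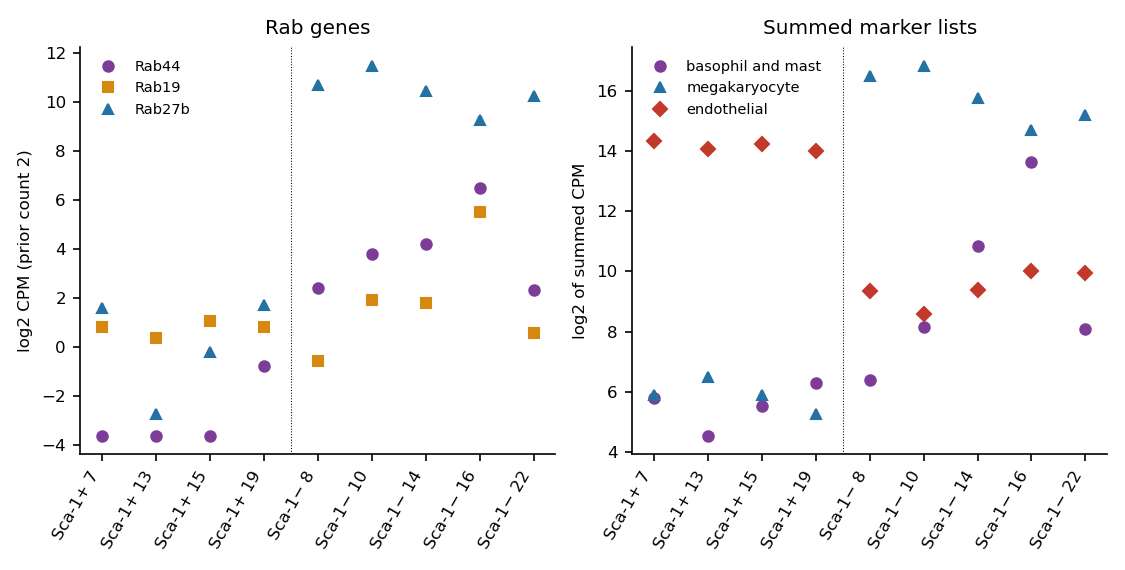
Left, log2 CPM (prior count 2) of Rab44, Rab19 and Rab27b in each of the 9 libraries, and right, the log2 of the summed CPM of basophil and mast cell, megakaryocyte and endothelial markers in the same libraries (dotted line, border between the fractions). Rab44, Rab19 and the basophil and mast cell sum are highest in Sca-1- 16, while Rab27b and the megakaryocyte sum are highest in Sca-1- 10 and lowest in Sca-1- 16 among Sca-1- libraries.

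Among the Sca-1- libraries the megakaryocyte marker sum fell in the order 10, 8, 14, 22, 16. Rab27b, Rab8b, Rab22a and Rab36 stood in that same order, which were 4 of the 16 lower Rabs, and so did 13 of all 54 tested. The counts of Rab36 were 3.70 to 6.39% of those of Rab27b in these libraries, whereas Rab44 ranged from 0.310 to 14.7% and Rab4a from 0.931 to 12.5%. The order 10, 8, 14, 22, 16 is also that of the rising TMM factors (0.581, 0.671, 0.988, 1.14 and 1.16), by which levels are divided. A match in order is therefore not independent of the scaling. On library size alone Rab27b ran 10, 22, 14, 8, 16 (1689, 1403, 1380, 1129 and 716 CPM). Rab8b and Rab36 left the order as well, and Rab22a kept it. These are descriptions over 5 libraries that share a scaling.

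Of the ER and Golgi Rabs, Rab36, which is known from Golgi and late endosome positioning, differed most. It was at 0.750, 0, 0.345 and 1.28 CPM in Sca-1+ 7, 13, 15 and 19 and at 105, 108, 79.3, 39.4 and 49.3 CPM in Sca-1- 8, 10, 14, 16 and 22. The fractions did not overlap (128.3-fold lower in Sca-1+, log2 fold change -7.004 ± 0.89, adjusted p = 0.000201). Its relative Rab34, which acts in lysosome positioning and the primary cilium, was at 18.1, 4.70, 11.1 and 10.3 CPM in Sca-1+ and 4.20, 1.95, 1.87, 3.85 and 3.22 CPM in Sca-1- libraries, all Sca-1+ values above all Sca-1- values (3.65-fold, log2 fold change 1.87 ± 0.44, adjusted p = 0.00624). Rab36 was below Rab34 in every Sca-1+ library, by 2.93 to 5.89 on the log2 scale, and above it in every Sca-1- library, by 3.33 to 5.72. Smooth muscle and pericyte markers were also higher in Sca-1+ libraries (5 of 8 called, 210 to 1414 against 18.5 to 56.5 CPM in sum), with the highest sum in Sca-1+ 19. The stromal sum was higher in Sca-1- libraries. Within each fraction it was highest and lowest in the same libraries as Rab34, Sca-1+ 7 and 13 (2212 and 509 CPM) and Sca-1- 8 and 14 (28838 and 2370 CPM). The part of these cells in the Rab34 difference was not tested.

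Rab6a, a Rab of Golgi to ER transport, was 2.14-fold lower in Sca-1+ cells (183 to 268 against 256 to 681 CPM, adjusted p = 0.0191), with overlap. The call was lost without Sca-1+ 7, 13 or 15, and 708 of its 3728 exon bases lie opposite Mrpl48. Its paralog Rab6b was not called (9.26 ± 1.86 against 18.2 ± 9.5 CPM, adjusted p = 0.0654), except without Sca-1- 14 or 16, by the DESeq2 test and when scaled to the endothelial markers, and the ratio of Rab6a to Rab6b overlapped between the fractions. Rab39b, known for its role in neurons, was low in both (0.232 to 0.553 against 0.933 to 2.16 CPM, log2 fold change -1.83 ± 0.50, adjusted p = 0.0137). That call was lost without Sca-1+ 7 (adjusted p = 0.0507), and 634 of its 3401 exon bases lie opposite Gm15063. Rab18, a Rab of lipid droplets and the ER, had the smallest called change (162 to 200 against 110 to 146 CPM, log2 fold change 0.47 ± 0.17, adjusted p = 0.0469), and no fit that left out any 1 of the 9 libraries called it (adjusted p = 0.0676 to 0.217).

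The Rabs that carry basal ER to Golgi traffic did not differ beyond their spread. Rab2a had the highest level per kb of all Rabs in both fractions (223 ± 13 CPM per kb in Sca-1+, 197 ± 76 in Sca-1-, adjusted p = 0.631 on its counts). Rab1b was at 138 ± 20 and 148 ± 28 CPM per kb (adjusted p = 0.751), and Rab1 at 67.4 ± 4.0 and 100.3 ± 49.3 (adjusted p = 0.205). Rab2b (adjusted p = 0.625), most of whose exon sequence is shared with other gene models, Rab30 (0.0822) and Rab43 (0.262) were not called either, though Rab30 passed as lower without Sca-1- 16 or 22 and by the DESeq2 test. Of the 5526 exon bases of Rab43, 4164 lie in an overlapping gene model (Gm45140).

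Endosomal Rabs were mostly uncalled, with 1 pair of relatives in opposite directions. Rab22a, an early endosome Rab, was at 66.4, 63.4, 57.5 and 60.2 CPM in Sca-1+ 7, 13, 15 and 19 and at 683, 818, 326, 191 and 236 CPM in Sca-1- 8, 10, 14, 16 and 22. The Sca-1+ libraries were tightly grouped and all lower (7.29-fold, log2 fold change -2.87 ± 0.47, adjusted p = 0.000777). Rab31, also called Rab22b, which moves cargo from the trans-Golgi to endosomes, was at 149, 61.5, 87.3 and 63.3 CPM in Sca-1+ and 44.6, 31.3, 17.8, 43.5 and 36.5 CPM in Sca-1- libraries. The fractions did not overlap (2.60-fold higher in Sca-1+, log2 fold change 1.38 ± 0.34, adjusted p = 0.00805). Like Rab34, Rab31 was highest and lowest in the same libraries of each fraction as the stromal marker sum, Sca-1+ 7 and 13 and Sca-1- 8 and 14. That sum was higher in Sca-1- libraries, and the part of stromal cells in the Rab31 difference was not tested. Within libraries the difference of log2 CPM, Rab22a minus Rab31, was -1.17 to 0.04 in Sca-1+ and 2.13 to 4.70 in Sca-1-.

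Rab17, a Rab of recycling in polarised epithelia, had no count in any Sca-1+ library and was at 1.38, 0.977, 0, 0.564 and 1.43 CPM in Sca-1- 8, 10, 14, 16 and 22. Set against a floor of 3 counts per library its level in Sca-1+ cells was lower by at least 8.20-fold (adjusted p = 0.00973), with overlap at 0 in Sca-1- 14. It fell under the filter when Sca-1- 8, 10, 16 or 22 was left out. Rab5a, Rab5b and Rab5c of early endosomes (adjusted p = 0.467, 0.789 and 0.096), Rab11a and Rab11b of recycling endosomes (0.0867 and 0.104), Rab14 (0.0827) and Rab21 (0.102) were not called. Rab11a, Rab11b and Rab14 passed as lower without Sca-1- 16, Rab11a and Rab14 also by the DESeq2 test, and Rab21 without Sca-1- 14. Rab11a was among the highest Rabs by level per kb in both fractions (122 ± 6 CPM per kb in Sca-1+ and 185 ± 54 in Sca-1- cells).

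In the late endosome, lysosome and autophagy group Rab20, known from endosome and phagosome maturation, was at 26.8, 51.8, 70.9 and 51.6 CPM in Sca-1+ 7, 13, 15 and 19. In Sca-1- 8, 10, 14, 16 and 22 it was at 1.86, 3.35, 4.67, 6.97 and 2.04 CPM. All Sca-1+ libraries were above all Sca-1- libraries (13.2-fold, log2 fold change 3.72 ± 0.45, adjusted p = 0.000156), and 356 of its 1392 exon bases lie opposite a second gene model (E230013L22Rik). Rab12, which sends transferrin receptor to lysosomes, was 1.82-fold higher (61.1 to 105 against 30.0 to 60.3 CPM, adjusted p = 0.0209), a call lost without Sca-1+ 19 or Sca-1- 8 or 14.

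Rab24, a Rab linked to autophagy, was at 50.1 to 109 CPM in Sca-1+ and 31.4 to 63.1 CPM in Sca-1- libraries, with overlap (log2 fold change 0.86 ± 0.29, adjusted p = 0.0331). The call was lost without Sca-1+ 7, 13 or 15 or Sca-1- 8, 10 or 14. Of its 2015 exon bases 1258 lie opposite Prelid1, and without a stated strand setting reads of the pair cannot be told apart. Rab7, the main late endosome Rab, was at 294 to 309 CPM in Sca-1+ and 205 to 290 CPM in Sca-1- libraries, which did not overlap, but it was not called (log2 fold change 0.25 ± 0.18, adjusted p = 0.307). Rab7b (adjusted p = 0.417) and Rab9 (0.708) were not called.

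Of the 5 tested Rabs outside these groups none was called. Rab23, known from Hedgehog signalling and cilia, was at 5.79 to 15.7 CPM in Sca-1+ and 0 to 5.54 CPM in Sca-1- libraries without overlap (log2 fold change 1.84 ± 0.92, adjusted p = 0.131, and 0.0397 without Sca-1- 14), and limma voom called it higher. Rab28, a ciliary Rab, did not overlap either (102 to 113 against 57.6 to 97.9 CPM, adjusted p = 0.0763). Rab40b, Rab40c and Rab42 had adjusted p-values of 0.828, 0.454 and 0.285. Too low to test beside Rab15 and Rab3c were Rab25 (at most 0.341 CPM), Rab39 (at most 0.838 CPM) and Rab9b (at most 0.977 CPM).

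Ranked by CPM per kb, the leading Rabs of Sca-1+ cells were Rab2a, Rab1b, Rab11a, Rab7 (116 ± 2) and Rab10 (69.8 ± 6.2). Rab2a lay above and Rab10 below the other 3 of these by more than their SDs. In Sca-1- cells they were Rab2a, Rab11a, Rab10 (182 ± 87), Rab8b (172 ± 138) and Rab1b, and neighbours in this order did not differ beyond their SD. Rab27b ranked sixth in Sca-1- cells (147 ± 79 CPM per kb) and 48th in Sca-1+ cells (0.163 ± 0.145). Rab8b made up 3.79 to 13.4% of the summed Rab level per kb in Sca-1- and 1.52 to 2.05% in Sca-1+ libraries, and Rab2a 8.99 to 11.3% and 16.97 to 19.2%. Rab genes as a whole took 0.465 to 0.504% of all counts in Sca-1+ and 0.551 to 0.722% in Sca-1- libraries.

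**Figure D4:**
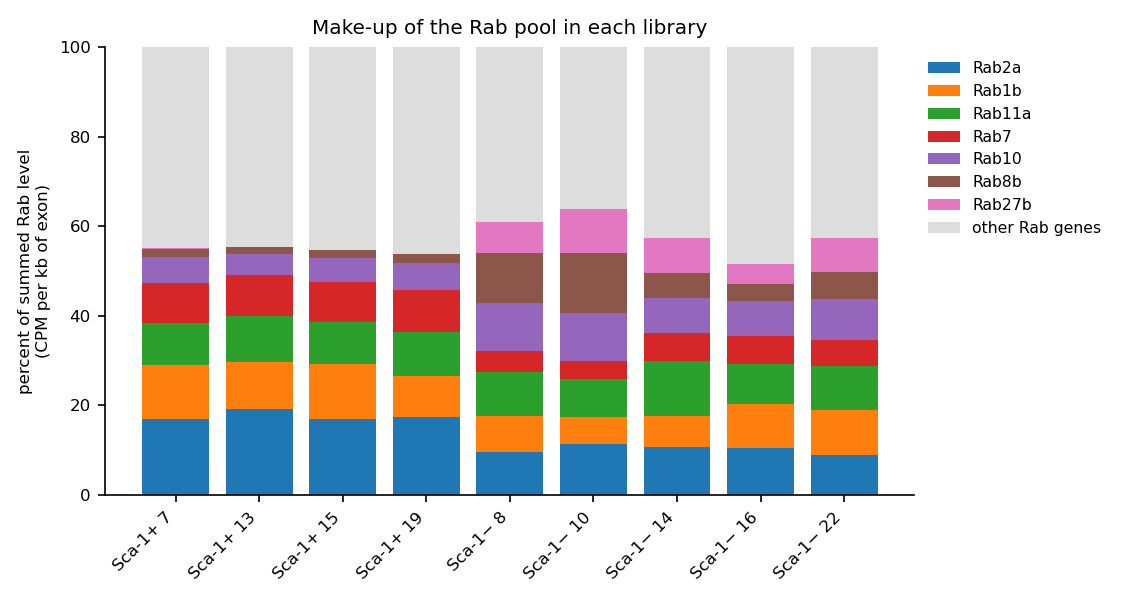
Share of each leading Rab in the summed Rab level of a library (y axis, percent of CPM per kb of exon summed over all 59 Rab genes, 1 bar per library). Rab27b and Rab8b take a visible share in Sca-1- libraries, 4.58 to 9.74% for Rab27b, and Rab2a a larger share in Sca-1+ libraries.

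The Rabs with a same-number paralog gave 16 pairs. In 1 pair (Rab33a and Rab33b) the genes were called in opposite directions, in 5 only one was called, in 2 both were called the same way and in 8 neither was. The within-library log2 ratio of the pair, which no scaling of libraries alters beyond the prior count, did not overlap between the fractions in 6 of the 16. These were Rab27a/Rab27b, Rab33a/Rab33b, Rab3a/Rab3b, Rab3a/Rab3d, Rab3b/Rab3d and Rab8a/Rab8b, of which 3 are built from the same Rab3 genes, and the share among other gene pairs was not computed. In 3 further pairs of relatives, picked after their values were seen (Rab22a/Rab31, Rab36/Rab34 and Rab32/Rab38), it did not overlap either. Where a gene had no count, the size of its ratios rests on the prior count. That was so for Rab3b in Sca-1- 8, 10 and 14 and Rab33a in Sca-1+ 13 and 19. It was also so for Rab36 in Sca-1+ 13 and Rab38 in Sca-1+ 19, and Rab27b had only 2 counts in Sca-1+ 13.

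**Figure D5:**
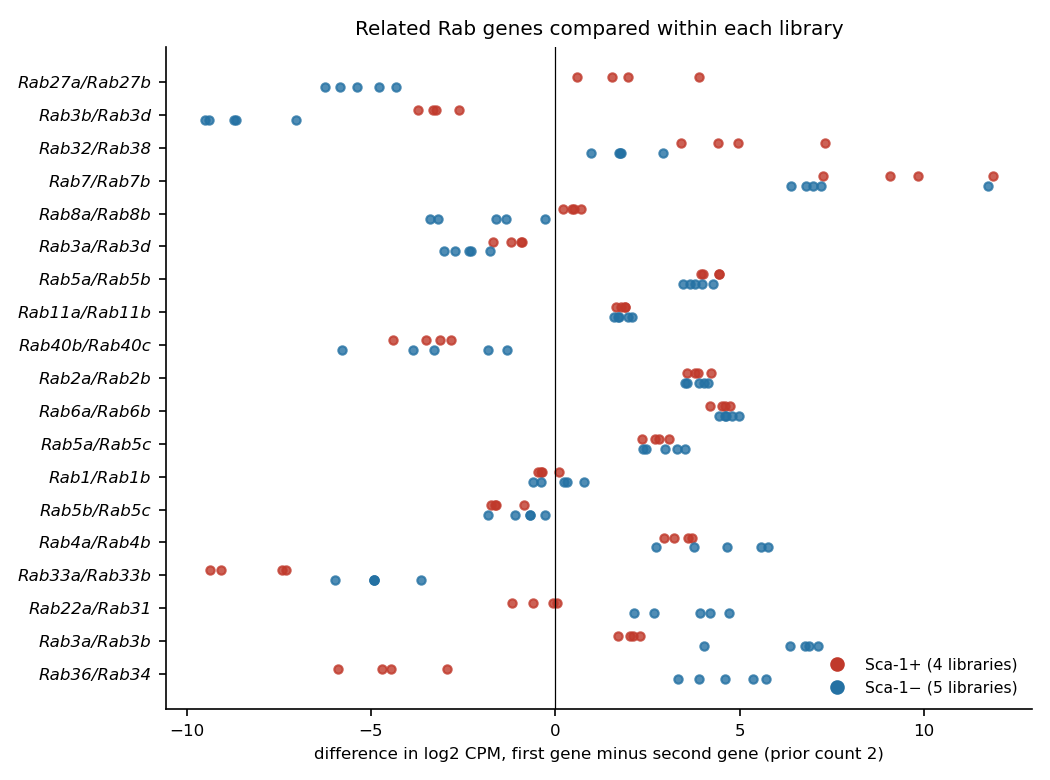
Difference in log2 CPM (prior count 2) between related Rab genes within each library, first named gene minus the second (x axis), for 16 same-number pairs and 3 added pairs. Rab27a/Rab27b and Rab8a/Rab8b change sign between the fractions, and so does Rab36/Rab34, while Rab2a/Rab2b, Rab6a/Rab6b and Rab11a/Rab11b lie over each other.

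Of 14 listed effector genes of Rab27 and Rab3, 7 were tested, of which 5 were lower and 1 was higher in Sca-1+ cells and 1 was not called (median log2 fold change -5.05). Of all genes tested 21.4% were lower and 23.3% higher. Unc13d (Munc13-4), the Rab27 effector that primes granules for release, was at 0.170, 0.545, 0.173 and 0.813 CPM in Sca-1+ and 536, 833, 233, 266 and 199.9 CPM in Sca-1- libraries (log2 fold change -9.92 ± 0.82, adjusted p = 2.49e-05). Sytl4 (granuphilin), an effector of Rab27 and Rab3 on secretory granules, was at 3.17, 4.97, 7.22 and 8.75 CPM and 674, 827, 332, 156 and 273 CPM (-6.23 ± 0.64, adjusted p = 6.12e-05). Neither gene overlapped between the fractions.

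The related synaptotagmin-like genes were uneven within Sca-1-. Sytl3 had no count in Sca-1+ libraries and was highest in Sca-1- 16 at 59.3 CPM (0.961 to 10.1 CPM in the others). Set against a floor of 3 counts, its level in Sca-1+ cells was at least 144-fold below the Sca-1- mean of 15.3 CPM (adjusted p = 0.00604). Most of that mean came from Sca-1- 16, so the bound is smaller against the other Sca-1- libraries. Sytl1 (0.162 ± 0.168 against 5.56 ± 7.83 CPM, adjusted p = 0.0184) and Sytl2 (0.417 ± 0.407 against 9.36 ± 7.66 CPM, adjusted p = 0.0256) were lower with overlap. Rph3al (Noc2), which binds Rab3 and Rab27, was higher in Sca-1+ cells (6.61 to 14.9 against 1.47 to 3.34 CPM, log2 fold change 2.09 ± 0.39, adjusted p = 0.00183). Myrip, which links Rab27a on Weibel-Palade bodies to actin, was at 0.0341 to 6.50 CPM in Sca-1+, at 1.63 CPM in Sca-1- 22 and without a count in the other Sca-1- libraries (adjusted p = 0.18). Sytl5, Exph5, Mlph, Rph3a, Rims1, Rims2 and Rims3 were too low to test.

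Of 32 exchange factor genes 10 were higher and 9 lower in Sca-1+ cells (median -0.01). Of 36 GTPase activating genes 11 were higher and 5 lower (median 0.05). For comparison, the same test called 23.3% of the 15937 filtered genes as higher and 21.4% as lower. The largest falls among exchange factors were in Dennd1c (0.0173 ± 0.0345 against 13.96 ± 15.02 CPM, adjusted p = 0.000271), Dennd4a (5.82 ± 2.67 against 179 ± 144 CPM, adjusted p = 0.000455) and Madd, the exchange factor of Rab3 and Rab27 (4.90 ± 1.47 against 64.3 ± 25.9 CPM, adjusted p = 7.71e-05). Hps1 and Hps4, which together form the exchange factor of Rab32 and Rab38, were both lower (log2 fold change -2.87 ± 0.41 and -2.08 ± 0.31, adjusted p = 0.000386 and 0.000433). The largest rises were in Rin1 and Rin2, exchange factors of Rab5 (4.44 ± 1.05 and 3.60 ± 0.43), and in Rab3il1, an exchange factor for Rab3a and Rab8 (149 ± 30 against 17.3 ± 8.6 CPM, 3.10 ± 0.40). Among GTPase activating genes, Tbc1d10c, Tbc1d31 and Rabgap1l fell most (-5.02, -4.26 and -3.94) and Tbc1d9, Tbc1d30 and Evi5 rose most (3.60, 3.08 and 3.02).

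Of 20 genes of granule biogenesis 7 were lower and 2 higher in Sca-1+ cells, at a median of -0.13, where 21.4% and 23.3% of all genes tested were. Nbeal2, the gene of gray platelet syndrome, in which alpha granules are missing, was at 4.97 to 7.90 CPM in Sca-1+ and 42.8 to 365 CPM in Sca-1- libraries (log2 fold change -4.85 ± 0.63, adjusted p = 0.000219). Lyst, the gene of Chediak-Higashi syndrome, and Ap3m1, an AP-3 subunit, were next (-4.47 ± 0.65 and -2.24 ± 0.42), and Snapin and Hps5 were slightly higher (0.61 ± 0.17 and 0.80 ± 0.29). Of 13 endosome effectors 5 were higher, led by Rab11fip5 (2.02 ± 0.53), Rab11fip2 (1.31 ± 0.34) and Rab11fip3 (0.95 ± 0.29), and 1, Rab11fip1, was lower (-4.07 ± 1.07, adjusted p = 0.0106), at a median of 0.21. The Rab11fip proteins bind Rab11, whose genes Rab11a and Rab11b were not called in the fit over all libraries.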

How the data were processed

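RNA of CD45-Ter119-CD31+ BM cells had been amplified with a SMART-Seq v4 Ultra Low Input kit, which primes on poly(A) and has no molecular identifiers, so PCR copies are counted and intervals cover less than the whole error. The authors deposited 1 table of raw counts per gene, whose names and Ensembl identifiers were used as given. The submitters' processing notes name STAR, featureCounts and mm10, and strand setting and annotation release are not given in the sources used here. Counts were tested with edgeR 4.0.16 in R 4.3.3 (filterByExpr with a minimum count of 10 and a total of 15, TMM, glmQLFit, glmQLFTest, 2-sided, Benjamini-Hochberg), on 15937 of 46078 genes and all 9 libraries without covariates, and the procedure was tested on simulated data. No 2 libraries of a fraction were copies (chi-square per degree of freedom 28.5 to 424 over 16 pairs). Exon lengths and overlaps came from a GENCODE annotation of the mm10 assembly, in which 45143 of the identifiers were found.

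Genes were named by a rule: the Rabs of platelet granules and Weibel-Palade bodies, the 8 largest and 8 smallest called changes, the 5 highest Rabs per kb in each fraction, same-number paralogs, Rab cycle genes (not reported here), all Rab27 and Rab3 effectors, and the 3 largest changes each way of other lists. Further Rabs are named to account for every gene, and Hps1, Hps4 and Rab19 with their values in view. The members and lists were chosen with earlier results of these data known. Alternatives were other scalings, no filter, the DESeq2 1.42.0 test, limma 3.58.1 voom, a robust fit, each library left out and a block of label numbers.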

Additional observations from a re-analysis of the deposited data

Results flagged for a closer look

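Of 107 sets of 4 or 5 libraries, 1 per tested Rab and fraction, 10 held a library that stood apart by its gap to the nearest other library, and chance alone gives about 1 in 20. That rate does not hold for sets with a library that had no count, whose log2 CPM is set by the prior count. The flags of Rab44, Rab17, Rab23, Rab7b and Rab3b came from such sets. In Sca-1+ libraries, Rab13 was at 4.71 log2 CPM in library 19 against 5.57 to 5.68 in the others, Rab2a at 9.02 in library 13 against 8.84 to 8.86, and Rab44 at -0.78 in library 19, with 13 counts, where the others had none (-3.63).

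In Sca-1- libraries, library 14 had no count of Rab17, Rab23 or Rab7b (-3.63 log2 CPM each, against at least -0.63, 0.74 and 0.63 in the others), and Rab3d was at 5.02 there against 5.68 to 5.88. Rab35 was at 5.29 in library 10 against 3.73 to 4.14, and Rab37 at 6.91 in library 8 against 7.19 to 7.28. Rab3b was at -1.16 in library 16, with 11 counts, against -3.63 to -3.04.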

How the results depend on the processing

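The depth of 21581653 to 25959818 counts leaves a floor of 0.0996 to 0.209 CPM (3 counts), so Rab15, Rab25, Rab39, Rab3c and Rab9b could not be compared. With DESeq2 size factors, upper-quartile scaling, no filter, the DESeq2 test, limma voom or a robust fit, 7 to 10 Rabs were higher and 14 to 21 lower, and 22 to 25 of the 25 calls were shared with the reported fit. The DESeq2 test also called Rab11a, Rab14, Rab29, Rab30 and Rab6b, DESeq2 size factors Rab29 and limma voom Rab23. Library size only moved the median of all genes from 0.07 to 0.43 and the share of calls that were higher from 52.1% to 63.1%, with 14 Rabs higher and 12 lower. Rab24, Rab26, Rab33a, Rab39b and Rab4a were then not called, and Rab28, Rab2a, Rab2b, Rab5a, Rab5c and Rab7 were called higher. Leaving out 1 library gave 6 to 8 Rabs higher, 12 to 18 lower and 5957 to 6969 genes called in all.

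Scaling to the endothelial genes moved the median of all genes to -5.05, called 14691 genes and left 0 Rabs higher and 52 lower. Under it 18 log2 fold changes reversed: Rab12 -4.50, Rab13 -5.46, Rab18 -4.76, Rab20 -1.34, Rab23 -3.22, Rab24 -4.14, Rab28 -4.87, Rab2a -5.28, Rab2b -5.21, Rab31 -3.79, Rab33b -4.23, Rab34 -3.18, Rab3a -4.04, Rab40c -5.17, Rab42 -3.70, Rab5a -5.19, Rab5c -4.73 and Rab7 -5.03. These turns follow from the shift of all genes. The within-library ratios of paralogs do not depend on this choice beyond the prior count.

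Libraries whose label numbers follow each other (7 and 8, 13 and 14, 15 and 16) correlated in their deviations at r = 0.147, 0.148 and 0.042. The set threshold was 0.1, which 7 and 8 and also 13 and 14 passed, and 15 and 16 did not. The reported fit uses no pairing, and whether these libraries share a source is not stated. Of these, 15 and 16 share a label tag, and so do 13 and 14, with no stated meaning. With them as a replicate block in 6 libraries, 3 Rabs were higher, 9 lower and 4340 genes called, and in the same 6 libraries without the block 6 were higher, 10 lower and 5360 called, Rab10, Rab24, Rab33b and Rab3a among them but not with the block. Of the 25 reported calls 12 were shared by the fit with the block and 16 by the fit of the same libraries without it. The cause of these differences was not tested.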
